A study of Mactra quadrangularis with 6 samples.

Results

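The genes described here encode the receptors for acetylcholine, GABA, glycine, glutamate, serotonin, dopamine and octopamine in the surf clam Mactra quadrangularis, together with the enzymes that break down and make acetylcholine. They were taken from the gene table by a fixed set of words in the description of each gene's best match in another species. The matching itself used no measured value, but the set was chosen with earlier results of these data known. The words picked out 232 of the 25145 genes listed. A gene name here is that description, so it names the closest known relative and says nothing of a tested function. The RNA came from the mantle, the tissue that lines the shell and secretes it. The acidified group holds 3 libraries labelled as ocean acidification stress and the control group holds 3 libraries, all from the same tissue. The series as a whole deals with shell colour. The titles of all 6 libraries share the letter p, which is not interpreted here, and the comparison covers libraries with that letter only. The design text says that the stressed groups met high pH, which is at odds with the word acidification, so acidified and control are used as the names the labels give. Animal age and the strength, duration and pH of the treatment are stated in none of the sources used here. The labels do not state that each library is a separate animal, and the p-values therefore measure only the spread between these samples, which may be technical.

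Nicotinic acetylcholine receptors, GABA-A receptors and glycine receptors belong to the Cys-loop family of ligand-gated channels, in which subunits join around a pore that lets cations or chloride through. Muscarinic, GABA-B, metabotropic glutamate and most amine receptors instead act through G proteins. Bivalve nerves use acetylcholine, glutamate, GABA, serotonin and dopamine as transmitters, and nicotinic receptor genes are numerous in bivalve genomes.

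Nicotinic subunits made up 127 of the 232 genes. The other classes were 19 serotonin receptors, 17 glycine receptor subunits, 8 AMPA-type or other ionotropic glutamate receptors, 8 kainate receptors, 5 NMDA receptor subunits, 8 metabotropic glutamate receptors, 7 GABA-A and 4 GABA-B subunits, 7 muscarinic receptors, 7 acetylcholinesterase genes, 6 dopamine and 5 octopamine receptors and 1 choline O-acetyltransferase. The remaining 3 are accessory proteins whose names contain a receptor's name. The deposited gene ontology terms named acetylcholine for 125 of the 127 nicotinic genes and a glycine-gated chloride channel for all 17 glycine receptor genes. They went against some other names. None of the 7 acetylcholinesterase genes carried a cholinesterase term, whereas 6 carried the broader carboxylic ester hydrolase term and 4 carried neurexin family protein binding, a property of the cholinesterase-like adhesion proteins called neuroligins. Of the 4 muscarinic genes with any term, 2 were annotated as neuropeptide receptors.

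Most of these genes were scarce in mantle. Over the 6 libraries 20 of them had no count at all, and 115 of 232 passed the filter on low counts and could be tested, which is 49.6%, against 70.8% of all genes. Of the 117 untested genes, 97 had some counts, with a median of 8 counts over all 6 libraries, and 0 were detected in every library. The scarcity lay mainly in the nicotinic class, where 45 of 127 genes were tested, 14 had no count and the median level was 0.105 FPKM, against 1.16 FPKM over all genes. FPKM is the authors' count scaled by transcript length and library size, so levels can be compared between genes. By contrast, all 7 muscarinic receptors, 13 of 17 glycine receptor subunits and 7 of 8 metabotropic glutamate receptors passed the filter. A mean level of at least 1 FPKM was reached by 56 of the 232 genes, among them 21 nicotinic subunits.

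**Figure D1:**
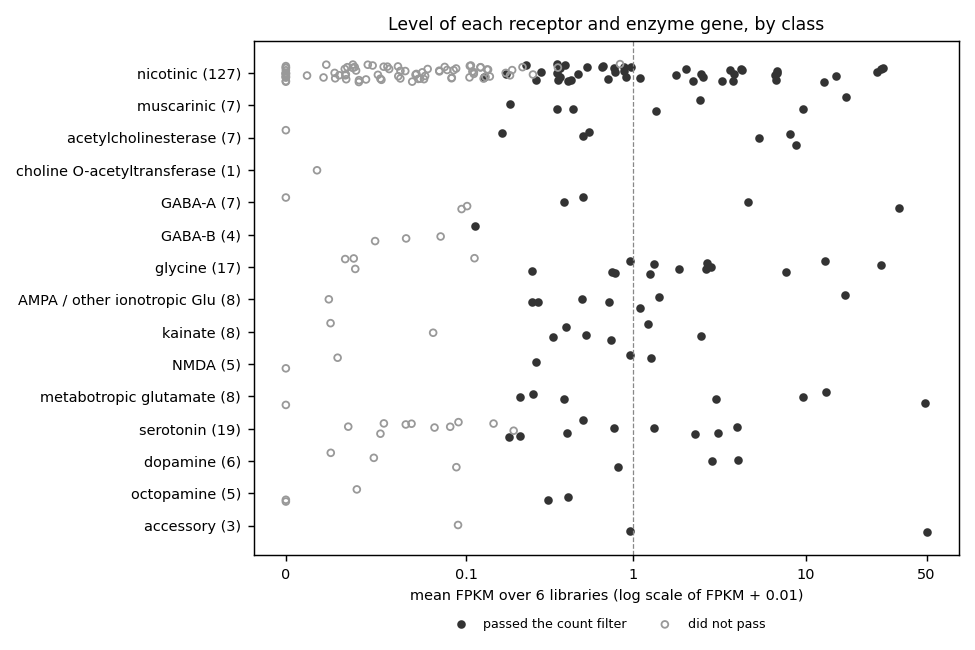
Mean FPKM over the 6 libraries of each gene, by class, on a log scale of FPKM + 0.01, with the number of genes in brackets and a dashed line at 1 FPKM. Filled points passed the count filter, open points did not. The nicotinic row stretches from 0 to 28.1 FPKM with most genes below 1, while the 7 muscarinic receptors all passed.

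Total counts per library lay between 28482358 and 37066703 in the acidified group and between 31929388 and 32992500 in the control group, so counting error is small for well-expressed genes and precision rests on how far the libraries of a group differ. With edgeR's quasi-likelihood test and Benjamini-Hochberg adjustment, 0 of the 115 genes passed an adjusted p of 0.05, and the background over all 17790 genes tested was 0.0%. At an unadjusted p under 0.05 there were 12 of the 115, or 10.4%, against 17.4% of all genes. They divided into 5 that were higher in the acidified libraries, against a background of 9.29%, and 7 that were lower, against 8.13%. DESeq2 gave an adjusted p under 0.05 for 3 of the 68 members it adjusted, against 8.81% of all genes. The groups did not overlap on scaled log2 counts per library for 22 of the 115, or 19.1%, against 25.6% of all genes. Past the adjusted p in edgeR both shares were 0.0%, and on each of the other counts the receptor genes had a smaller share than all genes. The tested members had a median level of 0.966 FPKM, against 2.79 FPKM for all tested genes. How far this lower level accounts for the smaller shares was not tested. Of 55 markers of mantle shell-forming epithelium, 4 had no count in any library (3 perlucin-like genes and a carbonic anhydrase II gene), and their summed levels were 944, 1196 and 990 FPKM in the acidified group and 1008, 1169 and 920 FPKM in the control group.

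The direction differed between classes. Among the 45 nicotinic genes tested, 35 had a log2 fold change above 0, with a median of 0.41, where 49.8% of all genes were above 0 and their median was 0.00. Over all 115 members, 72 (62.6%) were above 0 and the median was 0.16. Glycine receptor subunits had 10 of 13 above 0 and a median of 0.43, and muscarinic receptors had 6 of 7 and a median of 0.23. Serotonin receptors were mixed, with 5 of 9 above 0 and a median of 0.46. Metabotropic glutamate receptors lay mostly on the other side, with 1 of 7 above 0 and a median of -0.23, as did NMDA subunits with 1 of 3 and a median of -0.22. AMPA-type receptors had 2 of 7 and a median of -0.08, kainate receptors 3 of 6 and a median of 0.07, and acetylcholinesterase genes 3 of 6 and a median of -0.22. GABA-A subunits had 4 of 4 above 0 and a median of 0.18, and dopamine receptors 1 of 3 and a median of -0.12. Leaving out 1 library turned some of these medians. The muscarinic median was -0.026, with 3 of 7 above 0, without the first acidified library. The NMDA median was 0.010 without the second and 0.011 without the third acidified library, the kainate median -0.16 without the second acidified library, and the AMPA-type median 0.075 without the first control. The dopamine median was 0.25 without the first acidified library and 0.08 without the third control. The metabotropic median came to -0.07, with 3 of 7 above 0, without the third acidified library. These are descriptions of genes that passed the filter, and none of the class medians was tested. The classes also differ in transcript length, and medians of long and short genes are given below.

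These values use TMM scaling, which sets fold changes relative to the bulk of genes. With library size as the only scaling, the median of all genes moved to -0.33 and the higher genes made up 15.5% of those with an unadjusted p under 0.05, where TMM gave 53.3%. The nicotinic median was then 0.12, with 25 of 45 above 0, while the members' median turned to -0.17, the muscarinic median to -0.09, the kainate median to -0.27 and the GABA-A median to -0.11. On deposited FPKM, tested as log2(FPKM + 0.1), the nicotinic median was -0.01 with 21 of 45 above 0, beside a median of -0.33 for all genes. The nicotinic class therefore lay above the bulk of genes under each of the scalings run, and its position against 0 depended on the scaling. Median deviations of the 45 nicotinic genes from their own mean log2 CPM were 0.15, 0.15 and 0.32 in the acidified libraries and -0.13, -0.33 and 0.02 in the control libraries, so the groups did not overlap on this median. The summed FPKM of all 127 nicotinic genes, without TMM, did overlap. It was 163, 227 and 183 in the acidified libraries and 195, 154 and 214 in the control libraries. The tested members together were of middling length, and the 6459 genes within their interquartile range of estimated transcript length had a median of 0.05. The classes differed in median length, with 1576 for nicotinic, 1627 for muscarinic, 1718 for glycine, 2325 for serotonin, 4111 for NMDA and 4648 for metabotropic genes. Genes of the length of the neuron markers below (median 1743) had a median log2 fold change of 0.09. Genes of the length of the ciliated-cell markers (median 3847) had -0.20. How far length accounts for the class medians was not tested.

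**Figure D2:**
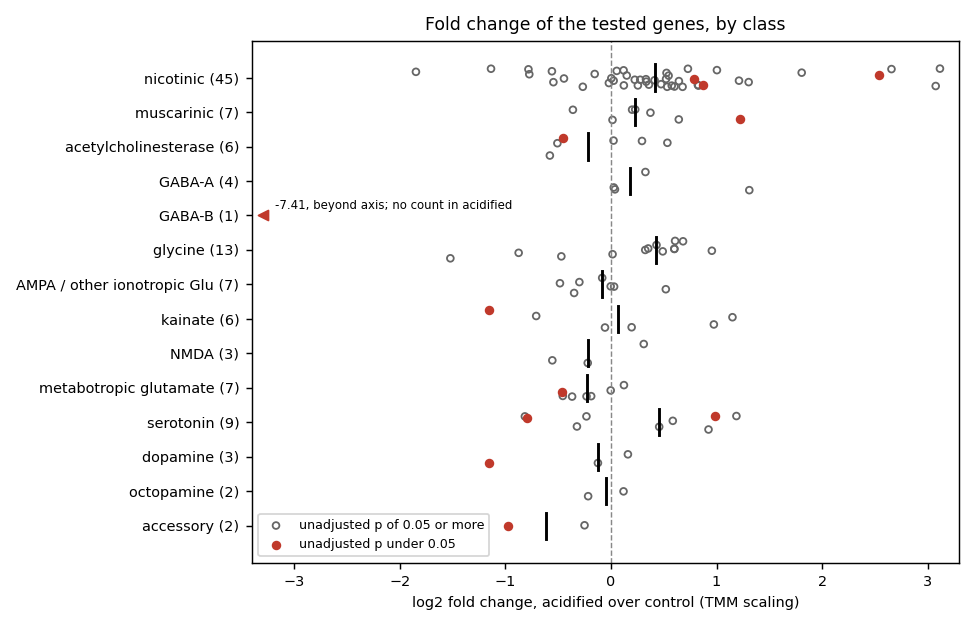
Log2 fold change, acidified over control with TMM scaling, of each tested gene, by class, with the number tested in brackets. Black bars are class medians, the dashed line is the median of all genes, and red points have an unadjusted p under 0.05. Nicotinic, glycine and muscarinic genes lie mostly right of the line and metabotropic glutamate receptors mostly left of it, and the single GABA-B gene tested, at -7.41, is drawn at the axis limit.

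Among the nicotinic subunits the smallest p belonged to the beta-2-like gene Mve09G004470 (chromosome 9, 14464466 to 14472788). Beta-2 subunits help build the heteromeric neuronal receptors of vertebrates. It stood at 4.03, 2.56 and 3.47 FPKM in the acidified libraries, against 0.934, 0.272 and 0.976 FPKM in the control libraries. Each acidified library was more than any control library, and the lowest level was in the second control. The log2 fold change was 2.54 ± 0.49 (SE), with an unadjusted p of 0.0011 and an adjusted p of 0.118 in edgeR's quasi-likelihood test. In the 6 fits that each left out 1 library it ranged between 2.17 and 2.79, and DESeq2 gave it an adjusted p of 0.00022. Its neighbour on the same strand, Mve09G004460, had a mean of 0.176 FPKM and was not tested. In bulk tissue such as this, fewer cells of a type and less RNA per cell cannot be told apart. Markers of neurons summed to 113, 100 and 101 FPKM in the acidified libraries and 135, 129 and 141 FPKM in the control libraries, which do not overlap on this scale without TMM. With TMM the median log2 fold change of the 47 neuron markers tested was -0.06, with 22 above 0, and with library size alone it was -0.38, beside -0.33 for all genes. At an unadjusted p under 0.05, 1 of the 47 was higher and 2 were lower. The 2 lower were synaptotagmin 1 and the YKT6-like gene Mve13G009960. The latter was matched by the word synaptobrevin, which does not make it particular to neurons. Tested genes within the markers' interquartile range of transcript length gave 10.3% higher and 5.32% lower. Of the 60 genes on that marker list, 4 had no count, namely 3 FMRFamide receptor genes and a synaptotagmin-7-like gene. Whether the neuronal share of the tissue plays a part in the receptor values was not tested.

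The most abundant nicotinic gene, the alpha-9-II-like Mve16G011530 (chromosome 16, 32974503 to 32981274), was at 29.5, 39.6 and 28.4 FPKM in the acidified libraries and 31.0, 19.3 and 21.0 FPKM in the control libraries. On deposited FPKM the groups overlapped through the first control, and after TMM scaling they did not. The log2 fold change was 0.79 ± 0.27, with an unadjusted p of 0.0193 and an adjusted p of 0.202. Alpha-9 and alpha-10 subunits form channels that pass calcium freely in vertebrate hair cells. Of 11 tested alpha-10 or alpha-10-like genes, 7 had a log2 fold change above 0 and 4 below, the lowest being Mve01G004470 at -1.14 with an unadjusted p of 0.142. Mve10G001090 had 4.77, 3.16 and 4.06 FPKM in the acidified libraries and 3.69, 2.22 and 4.09 FPKM in the control libraries, a log2 fold change of 0.60. Mve10G006180 had 10.8, 12.6 and 17.99 FPKM in the acidified libraries and 11.4, 9.87 and 14.6 FPKM in the control libraries, a log2 fold change of 0.58. In both genes the FPKM ranges overlapped, and the unadjusted p values were 0.0641 and 0.0755. Another alpha-10-like gene, Mve01G014020, averaged 23.3 ± 2.71 FPKM in the acidified group and 28.3 ± 1.84 FPKM in the control group (SD, n = 3 each), with a log2 fold change of 0.05 under TMM and -0.27 with library size alone.

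Among the remaining nicotinic genes, the alpha-6 gene Mve07G009360 had 4.81, 3.18 and 5.76 FPKM in the acidified libraries and 4.09, 3.17 and 2.14 FPKM in the control libraries. The second acidified library sat level with the second control, so the groups overlapped, and the log2 fold change was 0.88 ± 0.36 with an unadjusted p of 0.0429. The beta-3-like gene Mve10G009850, of a subunit type that in vertebrates joins channels without forming the main binding site, had 1.37, 0.990 and 0.904 FPKM in the acidified libraries and 0.784, 0.620 and 0.619 FPKM in the control libraries. Its groups did not overlap, and the log2 fold change was 1.0 ± 0.44 with an unadjusted p of 0.0555. The beta-3 gene Mve16G008540 varied over 2.12 to 6.70 FPKM in acidified and 0.862 to 3.40 FPKM in control libraries, with overlap and an unadjusted p of 0.083. Abundant genes need not differ. The alpha-3-like Mve04G010180 averaged 21.3 ± 2.00 FPKM in the acidified group and 33.0 ± 13.8 FPKM in the control group, with the spread coming from control library 3 at 47.7 FPKM and a log2 fold change of -0.27. The beta-like Mve12G011540 averaged 14.5 ± 1.67 and 15.4 ± 4.44 FPKM in the acidified and control groups, a log2 fold change of 0.25 that turned to -0.07 with library size alone. At the scarce end, the alpha-6-like Mve05G008810 and the alpha-7-like Mve10G002680 had no count in any acidified library. In the control libraries they had 4, 8 and 4 counts and 6, 7 and 5 counts, so with a floor of 3 counts per library they were at least 1.39-fold and 1.57-fold lower, and neither was tested.

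**Figure D3:**
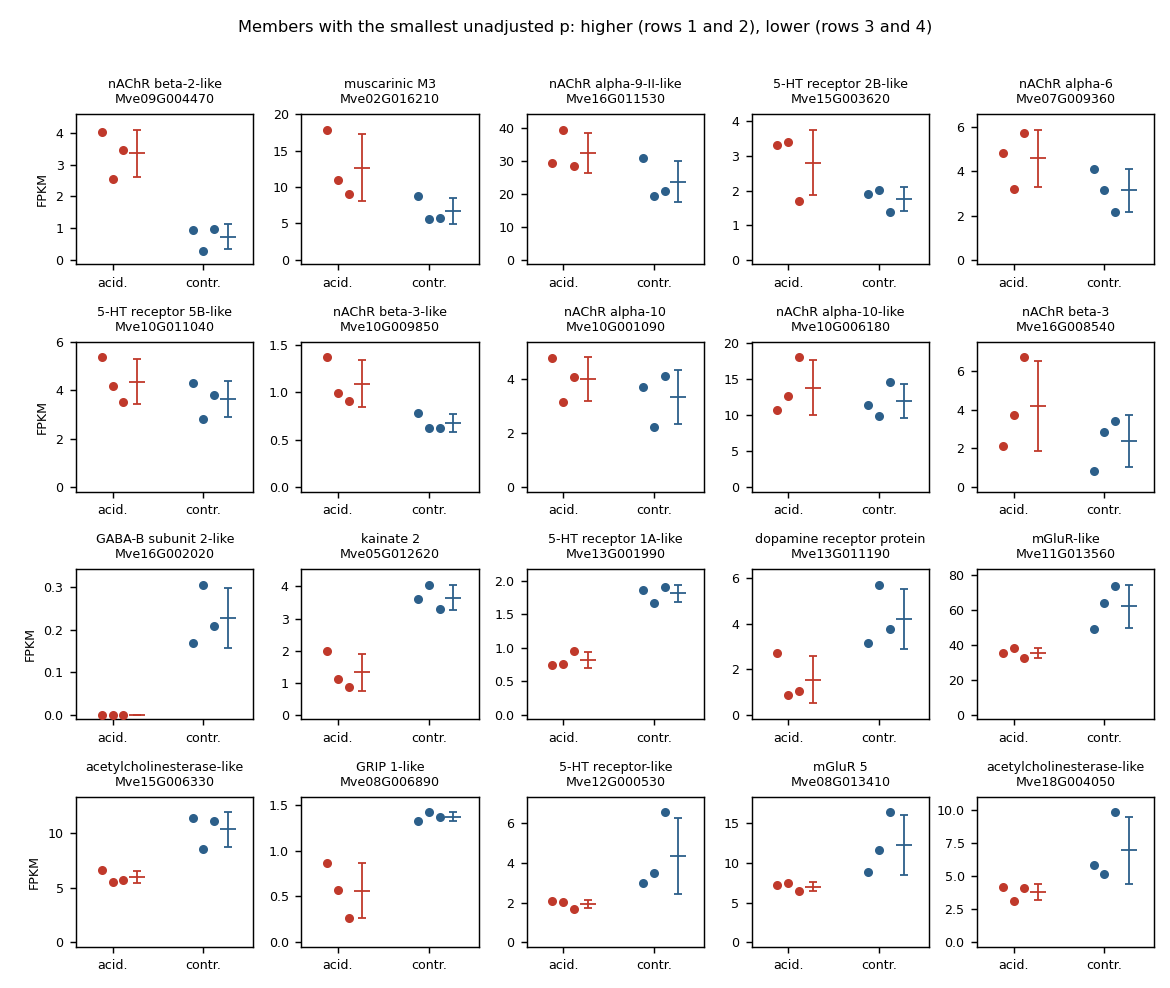
FPKM of the 10 genes per direction with the smallest unadjusted p, higher in acidified in the upper 2 rows and lower in the lower 2 rows. Points are libraries, with acidified left and control right, and bars are the mean and SD of 3 libraries. Mve09G004470, Mve13G001990 and Mve05G012620 show groups that do not overlap, while Mve07G009360 and Mve10G006180 overlap.

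Many nicotinic genes were present in some libraries and absent from others. Of 75 nicotinic genes with at least 10 counts in some library, 37 (49.3%) had no count in another library, against 18 of 83 other members (21.7%) and 21.9% of all genes. With a minimum of 50 counts the shares were 19.4% of nicotinic genes, 1.92% of other members and 6.88% of all genes. The nicotinic genes are also the scarcer ones, and how far their level accounts for the difference was not tested. The alpha-5-like Mve13G011860 had 27.7 FPKM in the second acidified library but 1.05 and 0.596 FPKM in the other acidified libraries, with 2.03, 4.13 and 4.69 FPKM in the control libraries. The beta-like Mve13G009920 had 0.984, 7.34 and 0.939 FPKM in the acidified libraries and 0, 0 and 1.43 FPKM in the control libraries. Its log2 fold change of 3.12 ± 1.71, the highest of the 115, came with an unadjusted p of 0.108. The alpha-6 gene Mve16G003600 reached 4.37 FPKM in the third control library and at most 0.300 FPKM in any other library. The beta-3 genes Mve10G009890 and Mve18G007630 were also highest there, at 1.93 and 1.45 FPKM, with at most 0.0957 and 0.0916 FPKM elsewhere. These 5 genes were picked after their values were seen, and they show single libraries that carry a gene's level.

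Position on the chromosomes gives a second view of the family. Members of a class less than 100 kb apart formed 32 side-by-side groups with 75 genes, and 24 of these groups were nicotinic and held 59 of the 127 nicotinic genes. In 14 of the 32 groups no gene passed the count filter. Copies that lie together may be similar enough to share reads, so their separate values are uncertain. On chromosome 7 the alpha-6 gene Mve07G009360 lies in a group of 4, where the neighbouring Mve07G009330 was nearly flat at 6.70, 7.31 and 6.54 FPKM in acidified and 6.67, 7.22 and 6.74 FPKM in control libraries. Under TMM the log2 fold changes within this group spanned 0.33 to 1.30, all above 0. FPKM is not TMM scaled, so a gene flat on FPKM can have a fold change above 0. A group of 3 on chromosome 13 behaved differently. In the first acidified library all 3 genes were low, at 1.05 FPKM for Mve13G011860, 1.18 FPKM for Mve13G011870 and 0.702 FPKM for Mve13G011880, while their highest values in the acidified group were 27.7, 9.72 and 13.4 FPKM. Mve13G011860 was lower still in the third acidified library, so its high acidified value came from the second library alone. Nicotinic genes were most numerous on chromosome 10, with 21, and chromosome 12, with 17. Chromosome 9 held 12 of the 17 glycine receptor genes, 5 of the 8 AMPA-type genes and 4 of the 7 GABA-A genes, and in all 11.6% of the members, against 5.42% of all genes.

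**Figure D4:**
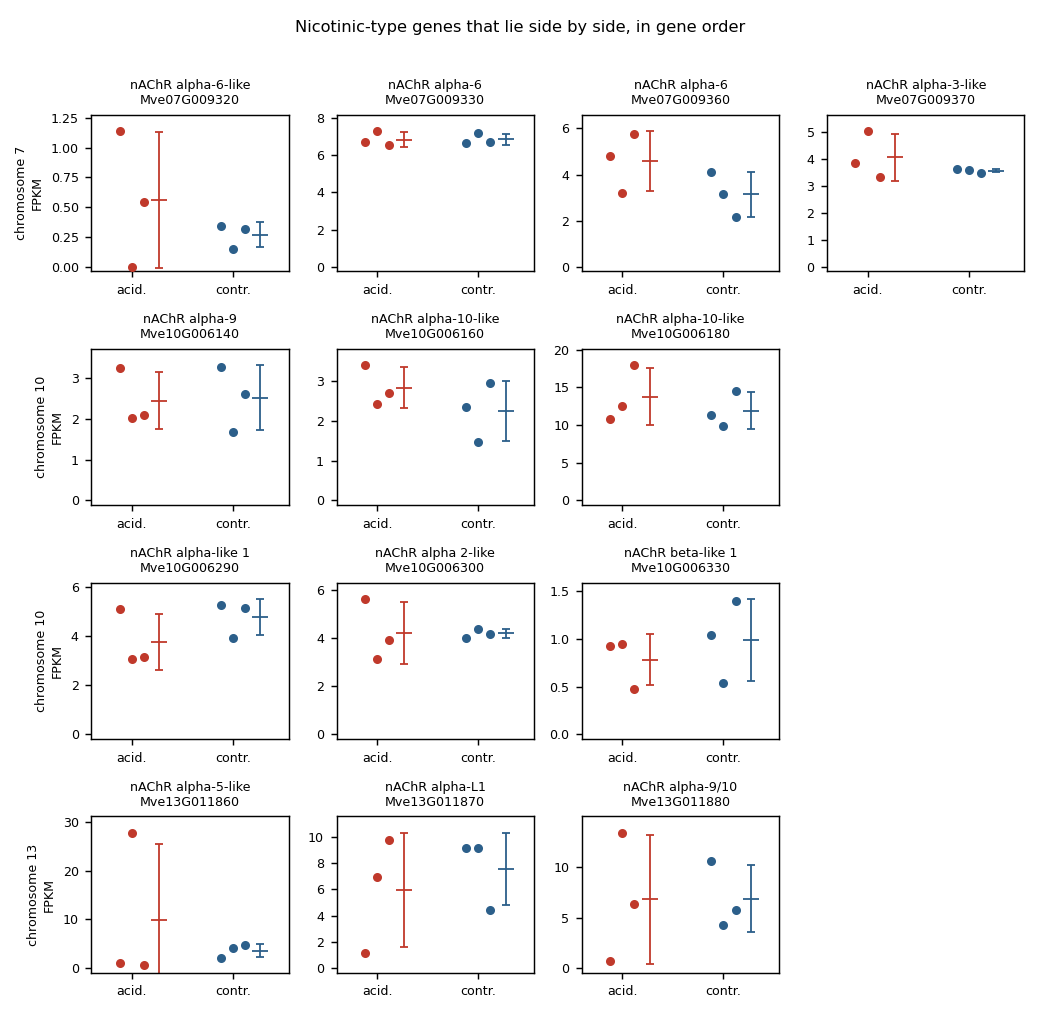
FPKM of the nicotinic genes in the 4 side-by-side groups with at least 3 tested genes, in gene order along chromosomes 7, 10 and 13. Points are libraries, acidified left and control right, and bars are the mean and SD of 3 libraries, with bars that pass below 0 leaving the panel. The chromosome 13 genes are low together in the first acidified library, and Mve13G011860 is low in the third as well. Mve07G009330 is nearly flat across all 6.

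Muscarinic receptors couple acetylcholine to G proteins. The M3 gene Mve02G016210 (chromosome 2, 51821636 to 51823691), annotated by its ontology terms as a neuropeptide receptor, was at 17.9, 11.0 and 9.09 FPKM in the acidified libraries and 8.75, 5.60 and 5.78 FPKM in the control libraries. Every acidified library was above every control library, by a narrow margin between the third acidified and the first control. The log2 fold change was 1.22 ± 0.30, with an unadjusted p of 0.00437, an adjusted p of 0.143 in edgeR's test and an adjusted p of 0.0107 in DESeq2. The M3 copy beside it, Mve02G016200, had a mean of 0.447 FPKM and a log2 fold change of 0.64. The most abundant muscarinic gene, gar-3-like Mve13G003460, averaged 16.4 ± 2.01 FPKM in the acidified group and 17.95 ± 5.25 FPKM in the control group, with a log2 fold change of 0.23 that turned to -0.11 with library size alone.

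Acetylcholinesterase splits acetylcholine and ends its action. The gene Mve15G006330 was at 6.56, 5.56 and 5.71 FPKM in the acidified libraries and 11.3, 8.50 and 11.1 FPKM in the control libraries, which did not overlap. Its log2 fold change was -0.45 ± 0.19 with an unadjusted p of 0.049. A second gene, Mve18G004050, had 4.20, 3.12 and 4.09 FPKM in the acidified libraries and 5.85, 5.13 and 9.80 FPKM in the control libraries, a log2 fold change of -0.51. These did not overlap on FPKM but did after TMM scaling, and the unadjusted p was 0.0907. The most abundant one, Mve19G002850, went the other way, at 9.28, 9.50 and 9.25 FPKM in the acidified libraries and 4.68, 5.34 and 15.1 FPKM in the control libraries. Its acidified libraries agree closely and the third control stands far above the others, with a log2 fold change of 0.53 over all 6 libraries and 1.19 without that control. Choline O-acetyltransferase, which makes acetylcholine, was at the edge of detection, with 3 counts in the third acidified library and 0 in the other 5.

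GABA-A receptors pass chloride, and some bicarbonate, when GABA binds. The beta-like subunit Mve01G001470 was the most abundant of these genes, at 26.2, 43.6 and 23.2 FPKM in the acidified libraries and 27.01, 56.9 and 30.9 FPKM in the control libraries, although its ontology terms do not name GABA. The second library of each group was the high one, and the log2 fold change was 0.03 under TMM and -0.30 with library size alone. The rho-3-like Mve17G008150, of the subunit type found in the vertebrate retina, had 6.42, 3.62 and 4.01 FPKM in the acidified libraries and 3.88, 4.69 and 5.47 FPKM in the control libraries, with overlap. The other GABA-A genes stayed under 1 FPKM in every library. GABA-B receptors act through G proteins, and their subunit 2 carries the coupling to the G protein. The subunit 2-like Mve16G002020 (chromosome 16, 4836942 to 4940365) had 0 counts in all 3 acidified libraries and 18, 32 and 21 counts in the control libraries. With a floor of 3 counts per library it was at least 6.16-fold lower in the acidified group, with an unadjusted p of 0.0035 and an adjusted p of 0.132 in edgeR's test. Its level in the control libraries was 0.168, 0.306 and 0.209 FPKM, so the contrast is between a very low level and none detected. The other 3 GABA-B genes were too scarce to be tested.

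Glycine receptors are chloride channels. The alpha-2 gene Mve09G008950 was at 31.0, 28.2 and 22.1 FPKM in the acidified libraries and 23.3, 20.8 and 38.4 FPKM in the control libraries. The third control was the highest of all 6 and the groups overlapped, with a log2 fold change of 0.32 under TMM and -0.01 with library size alone. None of the 13 tested subunits had an unadjusted p under 0.05, and their log2 fold changes ran between -1.52 and 0.96. The alpha-3-like Mve04G013930 and the alpha-3-like Mve06G003510 had the smallest p values of the class, with log2 fold changes of 0.68 and -0.87 and unadjusted p values of 0.0936 and 0.0963.

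Glutamate receptors included the most abundant receptor gene in the set. The metabotropic glutamate receptor-like Mve11G013560 (chromosome 11, 37238536 to 37252338) was at 35.3, 38.4 and 32.7 FPKM in the acidified libraries and 49.2, 63.7 and 73.5 FPKM in the control libraries. The acidified libraries lay close together and below all control libraries, which were spread more widely. The log2 fold change was -0.46 ± 0.19, with an unadjusted p of 0.0434 and an adjusted p of 0.271. Metabotropic glutamate receptor 5, Mve08G013410, which in vertebrates raises calcium through phospholipase C, had 7.22, 7.42 and 6.40 FPKM in the acidified libraries and 8.87, 11.6 and 16.4 FPKM in the control libraries. It had the same log2 fold change of -0.46, with an unadjusted p of 0.0822. In contrast, the receptor 1-like Mve05G003520 had 14.02, 10.6 and 11.9 FPKM in the acidified libraries and 14.9, 12.7 and 14.7 FPKM in the control libraries, which overlapped, and its log2 fold change was 0.12.

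Of the ionotropic glutamate receptors, kainate 2 gene Mve05G012620 (chromosome 5, 40897687 to 40934957) showed the clearest separation. Kainate receptors are cation channels of fast glutamate transmission. It stood at 1.98, 1.13 and 0.868 FPKM in the acidified libraries and 3.62, 4.05 and 3.29 FPKM in the control libraries, so every acidified library was below every control library. The log2 fold change was -1.16 ± 0.31, with an unadjusted p of 0.00684 and an adjusted p of 0.154 in edgeR's test, and DESeq2 gave an adjusted p of 0.028. Another kainate 2 gene, Mve15G008610, lay on the other side with a log2 fold change of 1.15 and an unadjusted p of 0.135 at a mean of 0.338 FPKM. The glutamate receptor 4-like Mve02G006880, the most abundant AMPA-type gene, had 21.0, 13.8 and 9.26 FPKM in the acidified libraries and 22.7, 21.5 and 13.2 FPKM in the control libraries, with wide overlap. NMDA receptor subunit 1-like Mve05G003530, the obligatory subunit of vertebrate NMDA receptors, had 1.88, 0.642 and 0.624 FPKM in the acidified libraries and 1.70, 1.17 and 1.63 FPKM in the control libraries. The first acidified library was the highest of the 6, and the log2 fold change of -0.22 became -0.84 without the first acidified library.

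Amine receptors differed in both directions. The serotonin receptor 1A-like Mve13G001990, of a type that lowers cyclic AMP, was at 0.740, 0.762 and 0.953 FPKM in the acidified libraries and 1.87, 1.67 and 1.91 FPKM in the control libraries. Both groups were tight and did not overlap, with a log2 fold change of -0.80 ± 0.27 and an unadjusted p of 0.0193. The serotonin receptor 2B-like Mve15G003620, of a type that raises calcium, had 3.31, 3.41 and 1.71 FPKM in the acidified libraries and 1.89, 2.02 and 1.37 FPKM in the control libraries. On FPKM the third acidified library lay within the control range, and the log2 fold change was 0.98 ± 0.34 with an unadjusted p of 0.0221. The receptor-like Mve12G000530 averaged 1.92 ± 0.203 FPKM in the acidified group and 4.33 ± 1.92 FPKM in the control group, and the 5B-like Mve10G011040, the most abundant serotonin receptor, averaged 4.35 ± 0.934 and 3.63 ± 0.754 FPKM in the acidified and control groups. Their log2 fold changes were -0.82 and 0.59, with unadjusted p values of 0.0613 and 0.0509.

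The dopamine receptor Mve13G011190 was at 2.73, 0.853 and 1.05 FPKM in the acidified libraries and 3.18, 5.72 and 3.76 FPKM in the control libraries. The groups did not overlap, although the first acidified library came close to the first control, and the log2 fold change was -1.16 ± 0.45 with an unadjusted p of 0.035. The D(1) receptor Mve01G003550, of the dopamine receptor type that raises cyclic AMP, averaged 3.35 ± 1.73 FPKM in the acidified group and 4.84 ± 3.35 FPKM in the control group, with overlap. The D(2) receptor A gene Mve03G000270 had 11, 8 and 8 counts in the acidified libraries and 0 counts in all 3 control libraries, so it was at least 3.85-fold higher, but it was too scarce to be tested and its ontology terms name a neuropeptide receptor. Receptors for octopamine, an invertebrate relative of noradrenaline, were scarce throughout, and the most abundant, Mve13G003170, averaged 0.340 ± 0.223 FPKM in the acidified group and 0.488 ± 0.0676 FPKM in the control group.

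Of the accessory proteins, the glutamate receptor-interacting protein 1-like gene Mve08G006890, a scaffold that holds AMPA receptors at synapses, had 0.864, 0.566 and 0.261 FPKM in the acidified libraries and 1.32, 1.42 and 1.37 FPKM in the control libraries. The groups did not overlap, and the log2 fold change was -0.97 ± 0.42 with an unadjusted p of 0.0493. The GABA receptor-associated protein-like 2 gene Mve06G002930, of a family best known for its work in autophagy, had the highest mean level of all 232 genes. It was at 36.9, 44.4 and 39.2 FPKM in the acidified libraries and 65.2, 46.1 and 71.6 FPKM in the control libraries, with a log2 fold change of -0.25 and an unadjusted p of 0.277.

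Genes around the receptors were counted in 4 further lists. Receptor scaffolds and chaperones were lower more than higher, with 0 higher and 7 lower of 18 tested at an unadjusted p under 0.05 and a median log2 fold change of -0.50. Genes of the same transcript length had a median of -0.10, and 9.97% of them were lower at that p. In this list disks large homolog 1, Mve15G002920, a scaffold of the postsynaptic membrane, had 1.20, 1.41 and 0.768 FPKM in the acidified libraries and 2.94, 3.41 and 3.40 FPKM in the control libraries, a log2 fold change of -1.19. The neurexin-4-like Mve07G014020, an adhesion protein, had 30.2, 21.8 and 21.8 FPKM in the acidified libraries and 43.8, 43.7 and 59.4 FPKM in the control libraries, a log2 fold change of -0.66. Neither pair of groups overlapped, and these scaffolds also serve epithelial cell junctions.

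Of 15 tested genes of transmitter synthesis, 2 were higher and 1 was lower at an unadjusted p under 0.05, where genes of the same transcript length gave 6.96% higher and 8.59% lower. The tryptophan 5-hydroxylase 1-like Mve05G008200, which takes the first step of serotonin synthesis, was at 1.89, 2.12 and 2.25 FPKM in the acidified libraries and 0.763, 0.946 and 1.07 FPKM in the control libraries. The acidified libraries were all above the control libraries, and the log2 fold change was 1.52 ± 0.29. Tyramine beta-hydroxylase makes octopamine, and its genes differed in direction. Mve03G018070 had 7.10, 6.11 and 2.39 FPKM in the acidified libraries and 1.46, 0.778 and 0.885 FPKM in the control libraries, while Mve19G000270 had 22.8, 30.9 and 34.2 FPKM in the acidified libraries and 70.0, 60.0 and 133 FPKM in the control libraries. Of 54 transporter genes tested, 6 were higher and 4 lower, beside 8.21% higher and 6.45% lower among genes of the same length. The excitatory amino acid transporter-like Mve10G012070, which clears glutamate, had 6.95, 7.00 and 4.39 FPKM in the acidified libraries and 4.06, 3.04 and 3.42 FPKM in the control libraries, a log2 fold change of 1.13. The vesicular glutamate transporter 2.2-like Mve10G005600, which loads glutamate into vesicles, had a log2 fold change of 1.10. Glycine transporter 2, Mve09G004850, which returns glycine to nerve endings in vertebrates, had 1.42, 1.83 and 0.888 FPKM in the acidified libraries and 4.36, 6.88 and 4.37 FPKM in the control libraries, a log2 fold change of -1.59. Of 20 genes of transmitter breakdown, 3 were higher and 0 lower, beside 6.65% higher and 8.92% lower among genes of the same length. One of them was the succinate-semialdehyde dehydrogenase gene Mve08G005310 of GABA breakdown, with a log2 fold change of 0.68 and an unadjusted p of 0.0125. No gene of the 4 lists passed an adjusted p of 0.05 in edgeR's test. DESeq2 gave an adjusted p under 0.05 for 2 scaffold, 3 synthesis, 5 transport and 0 breakdown genes, beside 8.81% of all genes it adjusted.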

How the data were processed

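The data are 6 mantle RNA-seq libraries, grouped by title. Per the submitters' processing notes, cutadapt 1.9, HISAT2 2.2.1, StringTie 2.1.6, DESeq2 and edgeR were used, and no source used here names the genome build. The table deposited by the authors holds raw counts per gene as whole numbers. It also holds FPKM values, deposited by the authors and scaled by library size and transcript length. They are not TMM scaled, so a ratio of FPKM means is usually lower than the fold change beside it. The 12 value columns of 6 libraries outside the listed samples were not used. The kit marks strand, no source used here names the strand setting of the counting, and 0 members overlap another gene.

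Counts were tested with edgeR 4.0.16 (R 4.3.3), using filterByExpr, TMM scaling, glmQLFit and glmQLFTest on group alone, with Benjamini-Hochberg adjustment over 17790 genes. The TMM factors were 0.987, 0.853 and 0.849 in the acidified libraries and 1.09, 1.08 and 1.19 in the control libraries. Standard errors of fold changes were computed from edgeR's F statistic. Transcript length was estimated from the ratio of count to FPKM. Genes of the same length as a list are the tested genes within that list's interquartile range of length. Those ranges held 2666 to 10499 genes. Overlap of groups refers to log2 CPM with a prior count of 2 unless FPKM is named.

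The genes named are the 10 with the smallest unadjusted p in each direction, the 10 most abundant, the most abundant of each class, and those with no count in 1 group and at least 3 counts in every library of the other. From each list of other genes, the 2 with the smallest p per direction were eligible. Other genes were picked after their values were seen. The members and lists were chosen with earlier results of these data known. The scaffold list is given without words matched by accident, removed after the descriptions were seen. With them it had 1 higher and 8 lower of 24 tested. The other lists were not cleaned in this way and still hold such matches. An example is a tubulin polyglutamylase gene in the digestive-gland list, matched through the word amylase. Alternatives were DESeq2 1.42.0, RLE scaling, library size alone, 2 other count filters, limma 3.58.1 on log2 FPKM with pseudocounts of 0.1 and 1, a replicate block, and leaving out each library.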

Additional observations from a re-analysis of the deposited data

How the results depend on the processing

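At an adjusted p under 0.05, edgeR called 0 of all genes and 0 members, and DESeq2 called 1227 genes and 3 members. Leaving out single libraries gave between 0 and 2 genes, the 2 without the first acidified library, and 0 members. Of the members at an unadjusted p under 0.05, 5 were higher and 7 lower. There were 2 higher and 12 lower with library size alone, 3 and 15 with limma on log2(FPKM + 0.1), and 2 and 16 on log2(FPKM + 1). All genes moved likewise, with 1652 higher and 1447 lower in edgeR with TMM and then 577 and 3141, 605 and 3364, and 607 and 3446 of 17790. Leaving out single libraries gave 4 to 8 higher, with 8 without the third acidified library, and 3 to 6 lower, with 3 without the third acidified library and 4 without the second or the third control. The members' median of 0.16 became -0.17, -0.13 and -0.060 in those 3 settings, and 0.11 to 0.21 without single libraries. On the same settings the 11 higher and 12 lower genes of the transmitter and scaffold lists together became 4 and 22, 5 and 24, and 4 and 25. Without single libraries 8 to 15 were higher and 7 to 14 lower. The marker lists' 21 higher and 19 lower became 10 and 44, 12 and 40, and 12 and 44, with 15 to 22 higher and 12 to 24 lower without single libraries. The cause was not tested.

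Same-numbered libraries did not deviate together (correlations of 0.009, -0.044 and -0.007). Whether the numbers pair libraries cannot be told from this, because pairing without a shared deviation would give the same values. With the replicate block 6 members were higher, 4 were lower and the median was 0.12.

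None of the 12 named genes at an unadjusted p under 0.05 turned direction under the alternatives run for it, and Mve16G002020 had no value under the filter of at least 30 counts on average. Values of other named genes that turned were -0.30, -0.28 and -0.27 for Mve01G001470 with library size alone, log2(FPKM + 0.1) and log2(FPKM + 1), and -0.33 to 0.47 without single libraries. For Mve01G014020 they were -0.27, -0.29 and -0.28, and -0.067 to 0.14 without single libraries. For Mve12G011540 they were -0.075, -0.062 and -0.060, and for Mve13G003460 -0.11, -0.094 and -0.091. Mve09G008950 was at -0.0062 with library size alone. Without single libraries Mve01G003550 ranged over -0.48 to 0.53, Mve02G006880 over -0.36 to 0.13, Mve04G010180 over -0.50 to 0.031, Mve05G003530 over -0.84 to 0.011 and Mve13G003170 over -0.73 to 0.14.

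Depth limits the 117 untested genes, and with 3 libraries a group the exact permutation test of a single gene cannot go below 0.1.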

Other observations

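Markers of further cell types possibly present in mantle were counted in the same fit, at an unadjusted p under 0.05 and with no gene passing the adjusted test in edgeR. DESeq2 gave an adjusted p under 0.05 for 4 genes matched by muscle words, 1 of them the non-muscle-like myosin gene named below. The numbers were 2 for ciliated-cell, 5 for digestive-gland, 4 for shell-forming epithelium and 1 for germ-line genes. For neuron markers the number was 2, 1 of them the YKT6-like gene, and over all genes it adjusted the share was 8.81%. Of 34 tested genes matched by muscle words 1 was higher and 5 were lower. Of those 5, Mve01G017770 had the smallest p and is described as a non-muscle-like myosin heavy chain. Of 60 ciliated-cell genes 6 were higher and 4 lower, and of 71 genes matched by digestive-gland words 8 were higher and 8 lower. Of 26 genes of shell-forming epithelium 4 were higher and 0 lower, and of 5 germ-line genes 1 was higher and 0 lower. Comparison shares were taken over tested genes within each list's interquartile range of transcript length. They were 6.63% higher and 10.4% lower for muscle, 4.50% and 13.5% for ciliated cells, and 8.00% and 8.05% for digestive gland. For shell-forming epithelium they were 10.3% and 5.70%, and for the germ line 7.10% and 9.38%. Synaptotagmin 1, Mve05G011100, the calcium sensor of transmitter release, had 7.80, 7.07 and 6.44 FPKM in the acidified libraries and 17.7, 13.5 and 16.9 FPKM in the control libraries, a log2 fold change of -0.84. The FMRFamide receptor-like Mve08G005630, a receptor for a molluscan neuropeptide, had 0.714, 1.80 and 0.891 FPKM in the acidified libraries and 0.131, 0.232 and 0.478 FPKM in the control libraries, a log2 fold change of 2.36.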
